A study of Rattus norvegicus with 19 samples.

Results

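The insulin-like growth factor (IGF) system was followed through 9 genes: the ligands Igf1 and Igf2, the receptors Igf1r and Igf2r, and the binding proteins Igfbp2, Igfbp3, Igfbp4, Igfbp5 and Igfbp6. All probe sets annotated with 1 of these symbols and no other were taken, which gave 22 of the 31099 probe sets on the array and 9 of the 14217 genes with a probe set of their own. RNA came from 2 hypothalamic nuclei, the supraoptic (SON) and the paraventricular (PVN), of untreated adult male rats of 2 inbred strains, labelled as 12 weeks old: the spontaneously hypertensive rat (SHR/NHsd) and the normotensive Wistar-Kyoto rat (WKY/NHsd). There were 5 PVN SHR, 5 PVN WKY, 4 SON SHR and 5 SON WKY arrays, each read here as a pool of nuclei, so p-values measure the spread between pools. Each strain is 1 inbred line, so blood pressure cannot be told apart from the other differences between the lines. In tissue of this kind, fewer cells of a type and less RNA per cell cannot be told apart either.

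IGF-1 and IGF-2 are small secreted peptides related to insulin. Both signal through the tyrosine kinase receptor encoded by Igf1r, whereas the receptor encoded by Igf2r mainly takes up and degrades IGF-2 and sorts lysosomal enzymes. The IGFBP proteins bind the ligands in the extracellular fluid and hold them back from, or deliver them to, the receptors. In the adult rodent brain, Igf2 and Igfbp2 transcripts are best known from the leptomeninges and choroid plexus rather than from neurones, and the SON lies against the ventral surface of the brain, where the leptomeninges cover it. Igf2 is an imprinted gene, expressed in most tissues from the paternal allele.

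Values are log2 signals: the deposited signals were brought to a common median, raised to a floor where they lay below it (1.91 on the log2 scale) and log2 transformed, so a difference of 1 is a 2-fold change. Where a gene has several probe sets, the brightest over the 19 arrays is given first, and signals of different probe sets were not set against each other. Differences were tested with limma over every probe set whose mean reached a filter in at least 1 group. A probe set was called at a Benjamini-Hochberg adjusted p under 0.05. Of the 22 probe sets, 13 passed the filter in the PVN, 14 in the SON and 14 over the 4 groups. The other 8 were 3 of Igf2, 3 of Igfbp5, 1 of Igf1 and 1 of Igfbp6.

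Vasopressin (Avp) and oxytocin (Oxt), which define magnocellular neurones, had mean signals of 11.90 to 12.38 in all 4 groups. Crh, the corticotrophin-releasing hormone of the PVN, averaged 4.08 in SON SHR and 5.07 in SON WKY arrays, against 8.74 in PVN SHR and 9.14 in PVN WKY arrays. Of a list of 10 nucleus identity genes, with Avp, Oxt and Crh among them, 8 were tested between nuclei. In SHR 1 was called higher in the SON and 4 lower, and in WKY 2 higher and 4 lower. Over all probe sets 13.7% were higher and 15.7% lower in SHR, and 13.2% and 13.7% in WKY. Between strains, 1 of 8 in the PVN and 1 of 7 in the SON was called lower in SHR, against 1.22% and 2.33% of all. Arrays correlated on average at 0.954 to 0.980 with the others of their group, and the lowest were SON WKY array 3 (0.954) and PVN SHR arrays 1 and 4 (0.960 each). Meningeal content was read from the mean log2 signal of 41 of 46 meningeal and fibroblast genes, none of them a member. The 5 not used were Foxc1, Foxc2, Asgr1 and Cdh1, which stayed under the filter, and Foxd1, for which no probe set was matched. The 3 with the highest mean signal were Mgp, Gjb6 and Slc6a20a. This meningeal mean ran from 6.76 to 8.23 over the SON arrays, against 4.99 to 5.17 over the PVN arrays.

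The promoters of the genes on which the results below turn are shown first: Igf2 and Igfbp2, whose signals moved together from array to array, and Igf1, which differed between strains. Sequences are from RefSeq on the rat build GRCr8, from 250 bases before to 50 after the annotated start, on the strand of the gene. Igf2 has 2 such windows, at chr1:207253931-207254230 and chr1:207250426-207250725 (minus strand). Igfbp2 lies at chr9:81864561-81864860 (plus strand) and Igf1 at chr7:24172282-24172581 (plus strand). In RefSeq order the gene next to Igfbp2 is Igfbp5. Capitals mark the GC box GGGCGG or its complement CCGCCC.
Igf2, first window: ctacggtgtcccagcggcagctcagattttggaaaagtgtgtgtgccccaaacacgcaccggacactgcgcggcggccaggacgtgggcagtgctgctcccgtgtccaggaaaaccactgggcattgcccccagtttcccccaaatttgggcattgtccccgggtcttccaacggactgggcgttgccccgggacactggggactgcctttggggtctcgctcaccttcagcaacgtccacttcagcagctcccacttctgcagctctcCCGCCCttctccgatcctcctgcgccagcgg
Igf2, second window: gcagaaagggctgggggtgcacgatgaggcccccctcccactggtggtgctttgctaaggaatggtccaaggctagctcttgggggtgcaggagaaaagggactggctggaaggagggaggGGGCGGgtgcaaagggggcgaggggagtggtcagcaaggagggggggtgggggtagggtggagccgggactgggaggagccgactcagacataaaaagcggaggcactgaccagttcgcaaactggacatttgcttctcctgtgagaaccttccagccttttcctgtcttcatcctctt
Igfbp2: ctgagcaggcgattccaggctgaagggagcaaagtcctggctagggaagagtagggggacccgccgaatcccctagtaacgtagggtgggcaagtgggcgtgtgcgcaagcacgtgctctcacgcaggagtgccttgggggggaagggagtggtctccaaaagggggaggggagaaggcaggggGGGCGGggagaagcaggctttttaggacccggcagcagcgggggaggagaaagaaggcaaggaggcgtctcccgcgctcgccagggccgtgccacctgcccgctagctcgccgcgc
Igf1: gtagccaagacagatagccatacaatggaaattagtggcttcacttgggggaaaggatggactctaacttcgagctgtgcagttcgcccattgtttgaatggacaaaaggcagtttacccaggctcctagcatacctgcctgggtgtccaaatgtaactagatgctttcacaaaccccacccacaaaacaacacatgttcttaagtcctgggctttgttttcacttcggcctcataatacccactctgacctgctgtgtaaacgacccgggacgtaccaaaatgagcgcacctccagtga
Both Igf2 windows and the Igfbp2 window held 1 GC box each and the Igf1 window held none. This hexamer, searched on both strands, was in 33.1% of the 33469 RefSeq promoter windows of the rat. A TATAAA box was in none of these 4 windows and in 14.2% of all windows. All 9 genes had a window, 10 in all. The windows of Igf1r and Igf2r also held the GC box, and those of Igfbp3, Igfbp4, Igfbp5 and Igfbp6 did not.

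**Figure D1:**
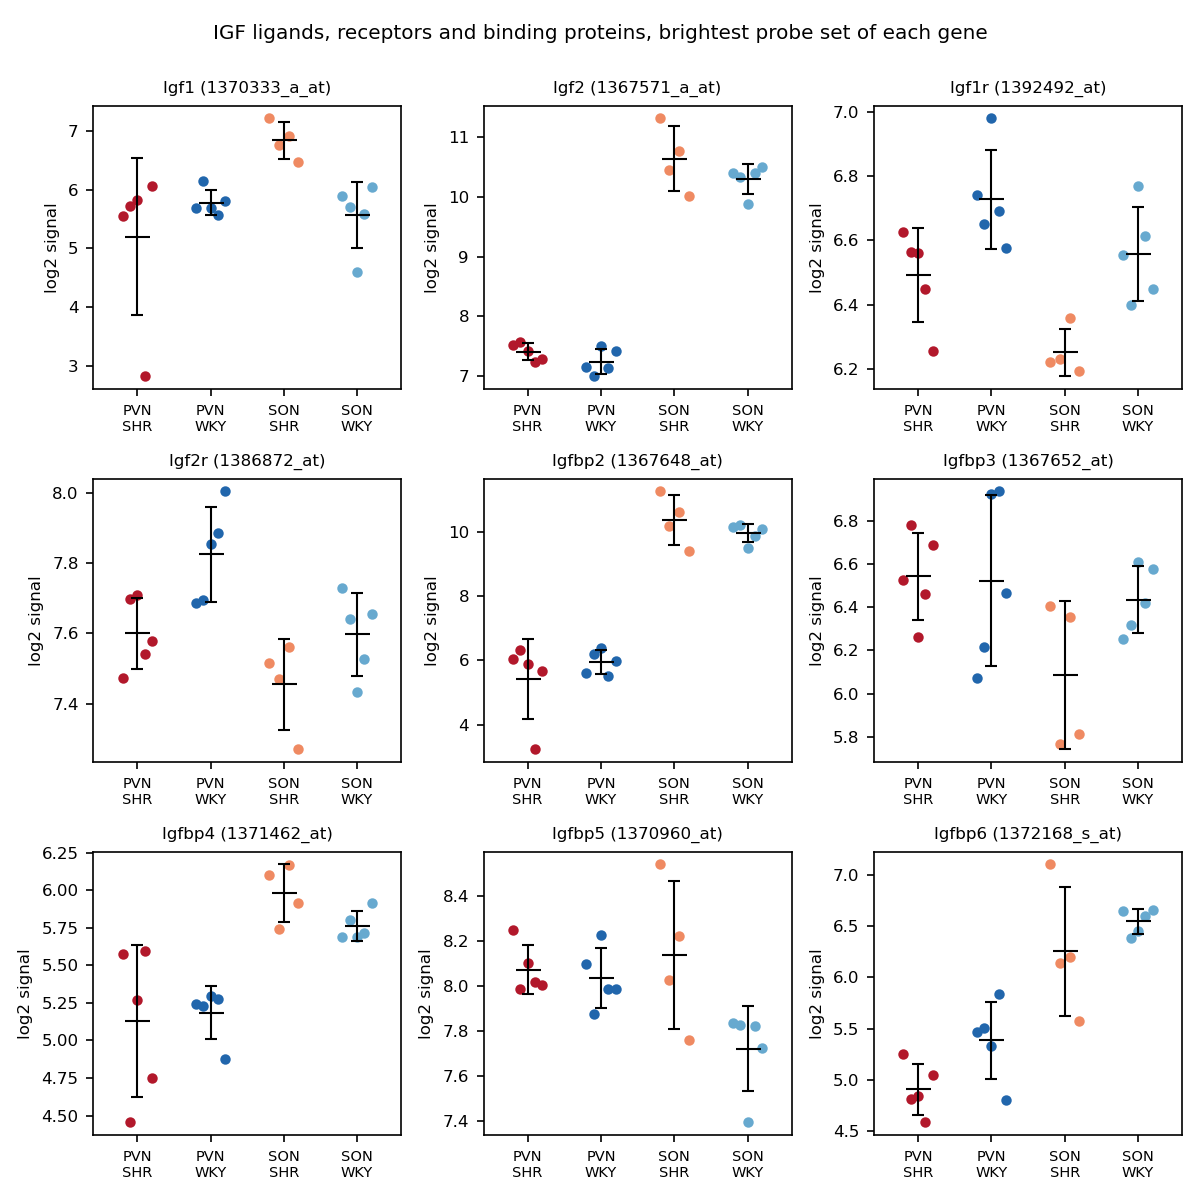
Log2 signal of the brightest probe set of each of the 9 genes, by group; each point is 1 array and the black bars give the mean ± SD (n = 5, 5, 4 and 5 from left to right). Igf2 and Igfbp2 lay at 9.41 or above in all SON arrays and at 7.57 or below in all PVN arrays, and PVN SHR array 4 lay far below its group for Igf1 and Igfbp2.

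The first question was how the strains differed in the SON. The growth factor Igf1 was higher in SHR by 2 probe sets, and no other member probe set was called. By the brightest Igf1 probe set (1370333_a_at) the SON SHR arrays read 7.22, 6.77, 6.91 and 6.48. The SON WKY arrays read 5.89, 5.71, 4.60, 5.60 and 6.05. All 4 SHR arrays lay above all 5 WKY arrays, and SON WKY array 3 was the lowest. SHR averaged 6.85 ± 0.31 (SD, n = 4) and WKY 5.57 ± 0.57 (SD, n = 5), and the difference was 1.28 (SE 0.26), or 2.42-fold (limma, adjusted p = 0.0178).

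By the second Igf1 probe set (1388469_at) the SON SHR arrays read 7.21, 6.78, 7.20 and 6.50. The SON WKY arrays read 5.72, 5.86, 5.59, 6.06 and 5.81. Again no SHR array reached down to the WKY range. SHR averaged 6.93 ± 0.35 and WKY 5.81 ± 0.17, and the difference was 1.12 (SE 0.16), or 2.17-fold (limma, adjusted p = 0.00187). These 2 were the calls among the 14 member probe sets tested, against 3.62% of all 16190 probe sets, where 1.29% were higher in SHR, and both were at least 2-fold higher, as were 0.371% of all. Both read the same gene, so 1 of 9 genes was called. The members were chosen with earlier results of these data known, so this count is no support for a share of the members. The third Igf1 probe set (1382599_at) lay under the filter, with 5.62, 4.77, 5.12 and 4.41 in SON SHR, against 2.79, 4.00, 3.69, 4.43 and 3.13 in SON WKY arrays. Here SHR array 4 fell just inside the WKY range; tested without the filter, the difference was 1.37 (SE 0.38, limma adjusted p = 0.160).

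The call of 1388469_at was kept when any 1 array was left out. The call of 1370333_a_at was lost without SON SHR array 1 (adjusted p = 0.0529) or SON SHR array 3 (adjusted p = 0.0538), with differences of 1.15 and 1.25. It was also lost without the filter (adjusted p = 0.110) and in 1 fit of the 4 groups (adjusted p = 0.130). The methods' t-test, adjusted over all probe sets tested here, called neither probe set (adjusted p = 0.112 and 0.103). By its results, the study filtered on present calls and on 2-fold change before that test. That procedure was not repeated here.

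**Figure D2:**
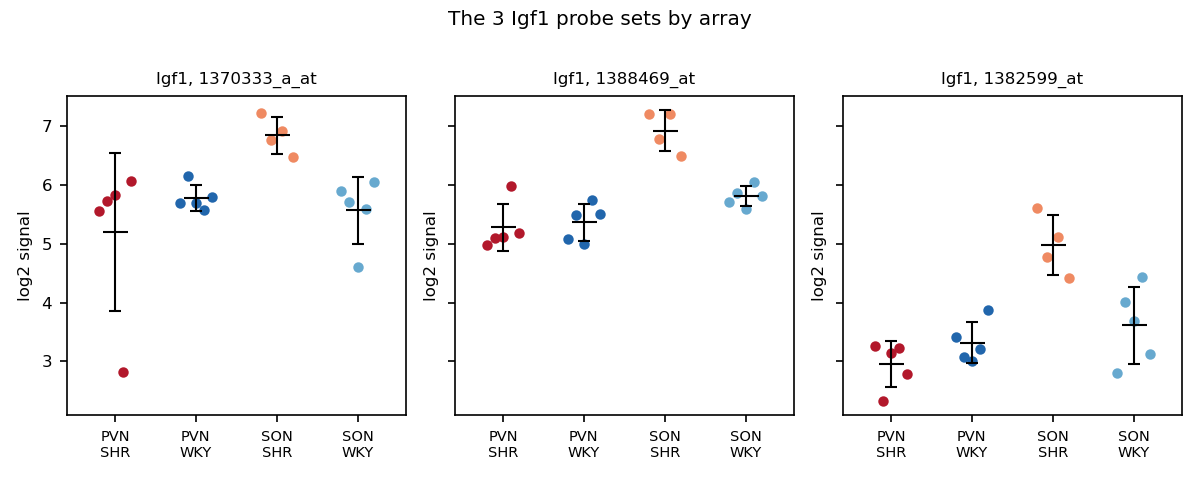
Log2 signal of the 3 Igf1 probe sets by group; each point is 1 array and the black bars give the mean ± SD. In the SON the SHR arrays lay above the WKY arrays for 1370333_a_at and 1388469_at, and for 1382599_at the lowest SHR array (4.41) lay level with the highest WKY array (4.43). The 2 brighter probe sets went opposite ways on PVN SHR array 4.

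The other ligand, Igf2, did not pass the test between strains in the SON. The SON SHR arrays read 11.31, 10.45, 10.77 and 10.02 and the SON WKY arrays 10.39, 10.34, 9.87, 10.40 and 10.49. The SHR arrays spread over a wider range than the WKY arrays and overlapped them. The difference was 0.34 (95% interval -0.14 to 0.82, limma adjusted p = 0.432). The 3 other Igf2 probe sets were at the floor in 11, 13 and 15 of the 19 arrays and were not tested.

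Among the receptors, none was called in the SON. Igf1r (1392492_at) read 6.20 to 6.36 in SON SHR arrays and 6.40 to 6.77 in SON WKY arrays. The groups did not overlap, and the difference of -0.31 (95% interval -0.53 to -0.08) had a limma adjusted p of 0.121. The second Igf1r probe set (1368123_at) overlapped between strains, with a difference of 0.08 (95% interval -0.18 to 0.35). Igf2r likewise separated by its second probe set (1367636_at), with 6.68 to 6.96 in SON SHR and 7.02 to 7.26 in SON WKY arrays and a difference of -0.32 (limma adjusted p = 0.103). By its brightest probe set (1386872_at) the Igf2r groups overlapped and the difference was -0.14 (95% interval -0.37 to 0.08).

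Of the binding proteins, Igfbp2 is the main IGFBP of the leptomeninges and cerebrospinal fluid. It read 11.26, 10.18, 10.62 and 9.41 in SON SHR arrays and 10.16, 10.20, 9.50, 9.87 and 10.07 in SON WKY arrays. SHR held both the highest and the lowest array, and the difference of 0.41 (95% interval -0.23 to 1.05) was not called (limma adjusted p = 0.483). Igfbp3 (1367652_at), the main carrier of IGFs in blood, read 5.77 to 6.40 in SON SHR and 6.25 to 6.61 in SON WKY arrays (difference -0.35, limma adjusted p = 0.234). By its second probe set (1386881_at) the difference was -0.11 (95% interval -0.34 to 0.12). Igfbp4, which mostly inhibits IGF action, read 5.74 to 6.17 in SON SHR and 5.69 to 5.92 in SON WKY arrays (difference 0.22, adjusted p = 0.304).

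The Igfbp5 probe sets went opposite ways in the SON. By 1370960_at, the brightest, SON SHR arrays read 8.54, 8.02, 8.22 and 7.76, against 7.84, 7.82, 7.39, 7.82 and 7.72 in SON WKY arrays. The SHR arrays lay mostly above, with array 4 inside the WKY range, and the difference was 0.42 (SE 0.15, limma adjusted p = 0.162). By 1387348_at, SON SHR arrays read 5.69, 5.53, 5.98 and 4.37, all below the SON WKY arrays at 6.12, 6.10, 6.48, 6.30 and 6.25. That difference was -0.86 (SE 0.26, limma adjusted p = 0.0912) and shrank to -0.52 without SON SHR array 4. It was called lower in SHR in 1 fit of the 4 groups (limma adjusted p = 0.0324). With an offset of 16 it was also called, at -0.64 (limma adjusted p = 0.0479). Which transcripts of Igfbp5 these probe sets read was not tested. Igfbp6, a binding protein with a preference for IGF-2, read 7.11, 6.14, 6.20 and 5.57 in SON SHR and 6.65, 6.38, 6.45, 6.60 and 6.66 in SON WKY arrays. SHR again spread on both sides of WKY, with a difference of -0.29 (95% interval -0.80 to 0.21).

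In the PVN most member probe sets were not called between strains. Their median difference was -0.22, against -0.04 over all probe sets, and some intervals were wide, so closeness of the strains is not shown. Igfbp5 by 1387348_at was the 1 call among 13 member probe sets, against 2.36% of all 16104 probe sets, where 1.22% were lower in SHR. It read 5.31, 5.01, 5.43, 5.36 and 5.52 in PVN SHR and 5.61, 6.07, 5.93, 5.68 and 6.26 in PVN WKY arrays. Every SHR array lay below every WKY array, and the difference was -0.58 (SE 0.14, limma adjusted p = 0.0344), short of 2-fold. The brightest Igfbp5 probe set did not share it: 7.99 to 8.25 in PVN SHR, 7.87 to 8.23 in PVN WKY arrays, with a difference of 0.04 (95% interval -0.18 to 0.26). The call rested on single arrays, since the adjusted p exceeded 0.05 when any 1 of 6 arrays was left out (PVN WKY 2, 3 or 5, PVN SHR 2, 3 or 4), up to 0.105, and it was 0.0805 on the signals as deposited.

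The ligands overlapped between strains in the PVN. Igf2 read 7.51, 7.57, 7.42, 7.23 and 7.29 in PVN SHR and 7.14, 7.0, 7.50, 7.12 and 7.42 in PVN WKY arrays, a difference of 0.17 (95% interval -0.09 to 0.42). Igf1 by 1370333_a_at read 5.56, 5.73, 5.83, 2.82 and 6.07 in PVN SHR and 5.70, 6.15, 5.70, 5.58 and 5.80 in PVN WKY arrays. PVN SHR array 4 alone was low, and the difference of -0.58 (SE 0.45) became 0.01 without it. By 1388469_at the same array was the highest PVN SHR array, at 5.99 against 4.99 to 5.19 in the other 4, and the PVN WKY arrays read 5.00 to 5.74.

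Igfbp2 showed the same array apart. The PVN SHR arrays read 6.04, 6.31, 5.88, 3.24 and 5.67, and the PVN WKY arrays 5.61, 6.21, 6.39, 5.53 and 5.97. Without PVN SHR array 4 the strain difference of -0.51 (SE 0.43) became 0.04. Igfbp6 read 4.58 to 5.25 in PVN SHR and 4.80 to 5.83 in PVN WKY arrays, a difference of -0.48 (SE 0.17, limma adjusted p = 0.198). Its second probe set (1387625_at), under the filter in the PVN, was at the floor in 4 of 5 PVN SHR arrays and in 1 of 5 PVN WKY arrays. Igf1r (1392492_at) differed by -0.24 (95% interval -0.47 to 0.0018) and Igf2r (1386872_at) by -0.22 (95% interval -0.45 to -0.0035), with overlapping arrays and no call (limma adjusted p = 0.375 and 0.361). Igfbp3 differed by 0.02 (95% interval -0.34 to 0.38) by 1367652_at. By its second probe set (1386881_at) it differed by -0.39 (95% interval -0.86 to 0.08), and neither was called. Igfbp4 was under the filter in the PVN.

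**Figure D3:**
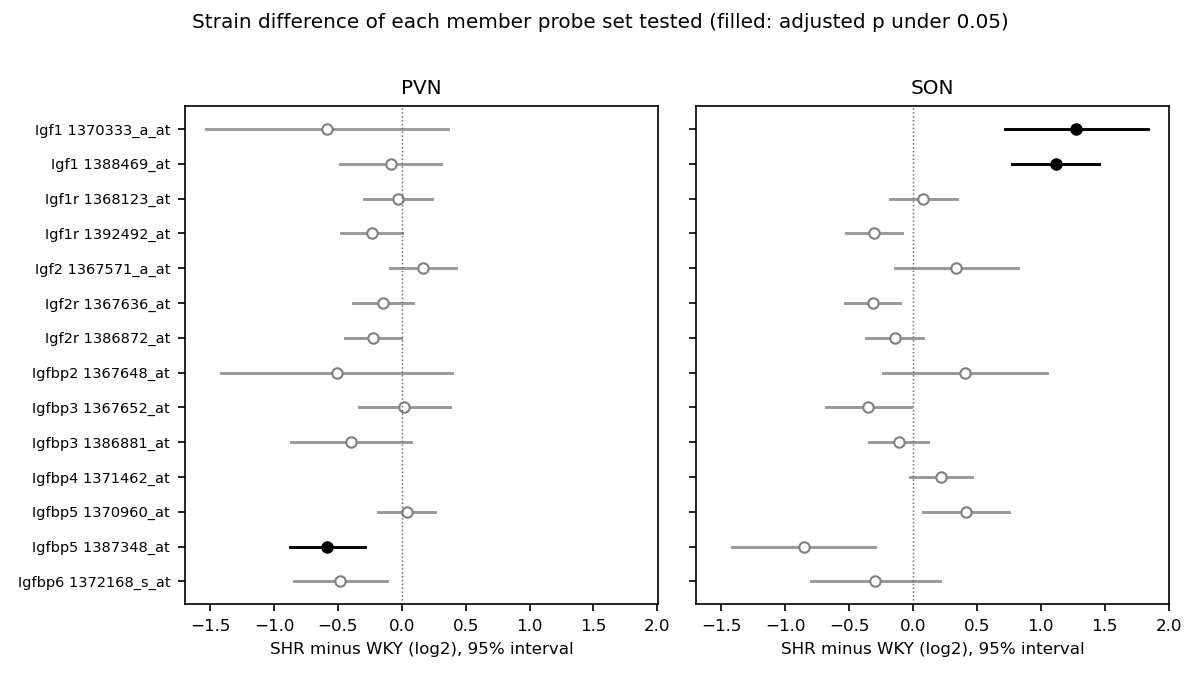
SHR minus WKY difference in log2 signal for each member probe set that passed the filter, in the PVN (left) and the SON (right); points give the difference, lines its 95% interval, and filled points were called at adjusted p under 0.05. Igf1 stood at 1.28 and 1.12 in the SON, and Igfbp5 by 1387348_at at -0.58 in the PVN; Igfbp4 was not tested in the PVN.

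Whether the strain difference itself differed between nuclei was tested in 1 fit of the 4 groups. None of the 14 member probe sets was called, and 0.0819% of all 17095 were. The largest values among the members were those of Igf1, at 1.86 (SE 0.62, limma adjusted p = 0.538) by 1370333_a_at and 1.20 (SE 0.27, limma adjusted p = 0.151) by 1388469_at. Without PVN SHR array 4 the second of these was called, at 1.38 (adjusted p = 0.0157), and the first was 1.26 and not called.

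The second question was how the members differed between nuclei. Between the nuclei, 6 of the 14 member probe sets were higher in the SON than in the PVN in SHR, and 4 in WKY, with none lower in either strain. Of all probe sets 29.4% were called in SHR (13.7% higher) and 26.9% in WKY (13.2% higher). The 6 hold 2 probe sets of Igf1, so 5 of 9 genes were higher in SHR and 4 in WKY. Igfbp4 is in both counts but passed the filter only through the SON, the higher nucleus. Its calls are therefore no support for a share of the members. Igf2 was higher in the SON by 3.23 in SHR (SE 0.19, 9.42-fold, limma adjusted p = 7.56e-11) and by 3.06 in WKY (SE 0.18, 8.36-fold, adjusted p = 7.67e-11). No SON array of either strain, the lowest at 9.87, overlapped a PVN array, the highest at 7.57. Igfbp2 was higher by 4.94 in SHR (SE 0.45, 30.6-fold, adjusted p = 5.64e-08) and by 4.02 in WKY (SE 0.43, 16.2-fold, adjusted p = 4.85e-07). Without PVN SHR array 4 the Igfbp2 difference in SHR was 4.39.

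Igf1 was higher in the SON than in the PVN in SHR, by 1.64 (SE 0.45, adjusted p = 0.00948) and 1.65 (SE 0.20, adjusted p = 2.23e-06) for its 2 probe sets. In WKY the same probe sets differed by -0.21 (adjusted p = 0.75) and 0.44 (adjusted p = 0.0812). In SHR the call of 1370333_a_at held without PVN SHR array 4, at 1.05. Igfbp4 was higher in the SON by 0.85 in SHR (SE 0.18, adjusted p = 0.00149) and 0.58 in WKY (SE 0.17, adjusted p = 0.0172); its PVN means lay under the filter of 5.32, which it passed only through the SON. Igfbp6 was higher by 1.35 in SHR (SE 0.23, adjusted p = 0.000131) and 1.16 in WKY (SE 0.21, adjusted p = 0.000364).

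The receptors, Igfbp3 and Igfbp5 were not called between nuclei. Igf1r (1392492_at) differed by -0.24 in SHR and -0.17 in WKY, and Igf2r (1386872_at) by -0.14 and -0.23. Igfbp3 (1367652_at) differed by -0.46 in SHR (limma adjusted p = 0.0614) and -0.09 in WKY, and its second probe set (1386881_at) by -0.02 and -0.30. Igfbp5 (1370960_at) differed by 0.06 in SHR and -0.31 in WKY, where the arrays did not overlap (adjusted p = 0.0701).

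In the order of group means, SON SHR stood first and SON WKY next for Igf2, Igfbp2 and Igfbp4, with overlapping arrays between these 2 groups and no overlap with the PVN groups below them. Igf1 (1370333_a_at) had SON SHR first, without overlap, and PVN WKY, SON WKY and PVN SHR after it, each overlapping the next. Igfbp6 ran SON WKY, SON SHR, PVN WKY and PVN SHR, and Igfbp5 ran SON SHR, PVN SHR, PVN WKY and SON WKY. Both receptors had PVN WKY first and SON SHR last, with every neighbour overlapping. Igfbp3 ran PVN SHR, PVN WKY, SON WKY and SON SHR, also with every neighbour overlapping.

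Meningeal genes moved with these contrasts. Of the 41 meningeal and fibroblast genes, 40 were higher in the SON than in the PVN in SHR and 39 in WKY, with 1 lower in each. Over all probe sets 13.7% were higher in SHR and 13.2% in WKY. Of the 41, 19 passed the filter in the PVN and all 41 in the SON, so these counts were set in part by the filter. The median differences were 2.44 and 1.95 against -0.02 and -0.01 over all probe sets. With the meningeal mean as a covariate in the fit, Igf2 differed between nuclei by 0.84 in SHR and 1.09 in WKY and Igfbp2 by 2.29 and 1.84, and neither was called. The Igf1 differences in SHR were 0.21 by 1370333_a_at (adjusted p = 0.973) and 0.046 by 1388469_at (adjusted p = 0.983). Igfbp5 by 1370960_at differed by -1.56 in WKY and was called (adjusted p = 0.00992). In that fit Igfbp4 (-0.057 and -0.17) and Igfbp6 (-1.06 and -0.81) changed sign, and calls over all probe sets fell to 122 in SHR and 225 in WKY. The meningeal means of the 2 nuclei did not overlap, so nucleus and meningeal content cannot be told apart in these contrasts.

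Between strains the SON overlapped in meningeal content. The SON SHR arrays had meningeal means of 8.23, 7.30, 7.76 and 6.96, and the SON WKY arrays 7.13, 7.15, 6.76, 7.09 and 7.30. SHR arrays 1 and 3 lay above every WKY array and array 4 lay below 4 of the 5. SHR averaged 7.56 ± 0.55 and WKY 7.09 ± 0.20, which differ by 0.47 (0.25 without SON SHR array 1 and 0.67 without SON SHR array 4; two-sided exact permutation p = 0.127, adjusted p = 0.339 over 8 cell type lists in 2 nuclei; the smallest p that 126 splits allow is 0.00794). Of the 41 genes, 3 were called higher in SON SHR and none lower: Crabp2 (1.04), Dcn (1.04) and Lum (1.00), with a median of 0.44 over the list and -0.04 over all probe sets. In the PVN the meningeal means were 5.08 ± 0.07 in SHR and 5.04 ± 0.04 in WKY (exact permutation p = 0.421, adjusted p = 0.518).

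Other cell type lists in the SON were set beside the Igf1 difference as well. The choroid plexus mean (6 of 16 genes) was 6.47 ± 0.09 in SON SHR and 6.26 ± 0.10 in SON WKY, without overlap (exact permutation p = 0.00794, adjusted p = 0.127). The microglial and macrophage mean (11 of 16 genes) was 7.25 ± 0.25 in SHR and 7.06 ± 0.16 in WKY (exact permutation p = 0.238). The mural mean (11 of 14 genes) was 6.33 ± 0.28 in SHR and 6.01 ± 0.28 in WKY (exact permutation p = 0.190), and the oligodendrocyte mean (11 of 12 genes) was 8.13 ± 0.13 in SHR and 7.94 ± 0.18 in WKY (exact permutation p = 0.143). The astrocyte mean (10 of 12 genes) was 10.63 ± 0.12 in SHR and 10.73 ± 0.11 in WKY (exact permutation p = 0.230), and the endothelial mean (14 of 15 genes) was 7.01 ± 0.20 in SHR and 7.06 ± 0.20 in WKY (exact permutation p = 0.698). The neuronal mean (14 of 15 genes) was 9.21 ± 0.09 in SHR and 9.40 ± 0.08 in WKY (exact permutation p = 0.0317, adjusted p = 0.254). The part of these lists in the Igf1 difference was not tested.

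With the meningeal mean as a covariate, the Igf1 difference between strains in the SON was 0.85 (SE 0.13) by 1388469_at and still called (limma adjusted p = 0.00792). By 1370333_a_at it was 0.86 (SE 0.23) and no longer called (adjusted p = 0.0832). In SON SHR array 4, whose meningeal mean of 6.96 was below that of 4 SON WKY arrays, Igf1 read 6.48 and 6.50, above the highest SON WKY values of 6.05 and 6.06. By 1382599_at this array read 4.41, just under the highest SON WKY value of 4.43. On the same array Igf2, at 10.02, and Igfbp2, at 9.41, were below 4 and 5 of the 5 SON WKY arrays. In the same fit the strain differences of Igf2 (-0.14, adjusted p = 0.555) and Igfbp2 (-0.24, adjusted p = 0.377) turned negative, and Igfbp6 (-0.76, adjusted p = 0.0316) and Igfbp5 by 1387348_at (-1.21, adjusted p = 0.0362) were called lower in SHR.

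The third question was which members followed meningeal content from array to array within a nucleus. In the SON, 4 of 9 genes did so after strain means were subtracted (18 relations over 2 nuclei, each with an exact permutation over all orders within strains). The same relation was not tested over all probe sets, so no share over all stands beside this count. Igf2 followed the meningeal mean most closely, with r = 0.985 and rho = 0.918 over 9 arrays (exact permutation adjusted p = 0.0188 for r and 0.0438 for rho). Among the SHR arrays the order of Igf2, Igfbp2, Igfbp5 (1370960_at) and each Igf1 probe set was that of the meningeal mean: arrays 1, 3, 2 and 4. Igfbp6, whose relation was not called, had the same order. The slope of Igf2 over all 9 arrays was 1.01 log2 units per log2 unit of the meningeal mean. Without SHR arrays 1 and 3, the farthest from the median, its r was 0.972.

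Igfbp2 had r = 0.969 and rho = 0.848 (exact permutation adjusted p = 0.0208 and 0.0700), and r = 0.893 without the farthest 2 arrays. Its slope over all 9 arrays, 1.36, was the steepest of the 9 genes. Igfbp5 (1370960_at) had r = 0.934 and rho = 0.657 (exact permutation adjusted p = 0.0328 and 0.223), and r = 0.840 without the farthest 2 arrays. Its slope over all 9 arrays was 0.61. Igf1 (1370333_a_at) had r = 0.726 and rho = 0.906 (exact permutation adjusted p = 0.0125 and 0.0438) and r = 0.914 without those arrays. In relations added after the data were seen, with p-values not adjusted, the second Igf1 probe set had r = 0.852 and rho = 0.610 (exact permutation p = 0.0330 and 0.112), and r = 0.641 without those arrays. The third had r = 0.432 and rho = 0.317 (exact permutation p = 0.222 and 0.427), and r = -0.127 without them.

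Igfbp6 had r = 0.895 (exact permutation adjusted p = 0.0525), which fell to 0.660 without SHR arrays 1 and 3. Igf2r had r = 0.727 (adjusted p = 0.0823, exact permutation). The relations of Igf1r (r = -0.182), Igfbp3 (r = 0.685) and Igfbp4 (r = 0.697) did not pass the exact permutation test, and that of Igfbp3 turned to -0.338 without the farthest 2 arrays. In the PVN no relation passed over 10 arrays. The closest was Igfbp4, with r = 0.729 and rho = 0.813 (exact permutation adjusted p = 0.0934 and 0.0579), and r was 0.342 without PVN SHR arrays 2 and 4. There the meningeal mean ran only from 4.99 to 5.17, and the negative r of Igf1 (-0.727) became -0.469 and that of Igfbp2 (-0.719) became 0.047 without PVN SHR arrays 2 and 4. The second Igf1 probe set had r = 0.604 there, of the opposite sign (exact permutation p = 0.112, not adjusted), and that became 0.172 without those arrays. For Igfbp3, r = 0.275 became 0.893 without them (exact permutation p = 0.0292, not adjusted).

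**Figure D4:**
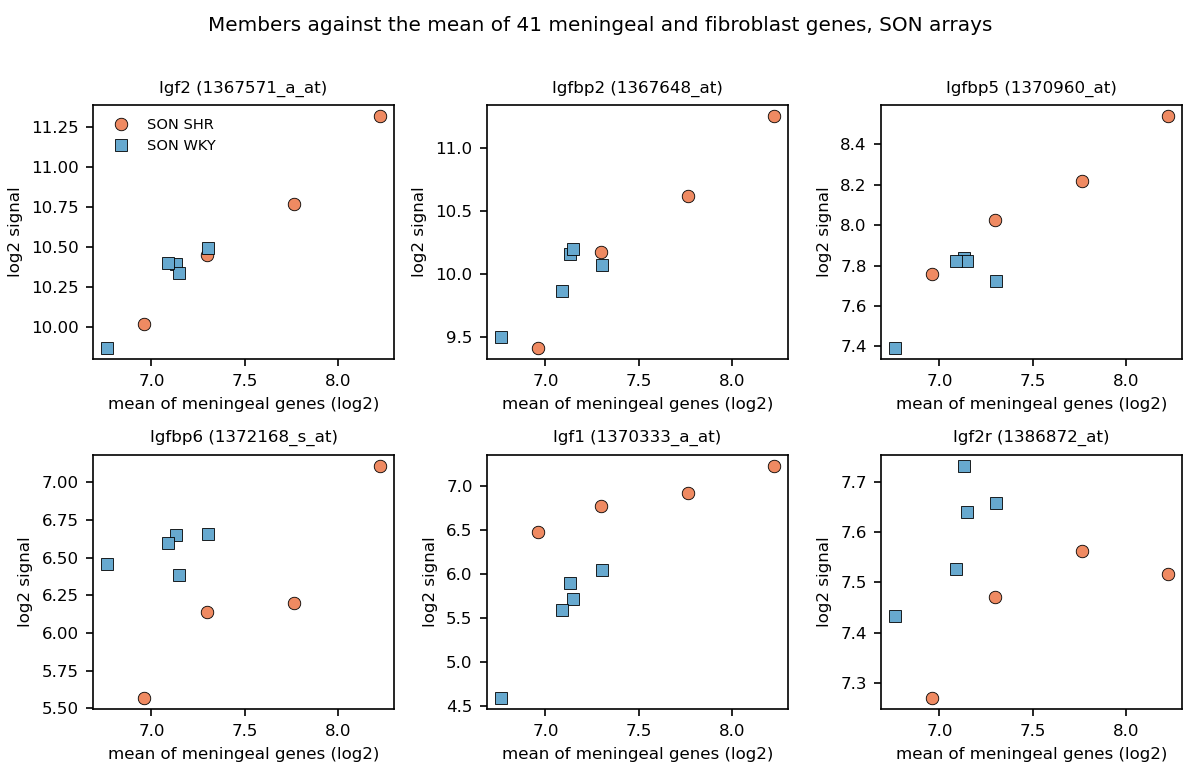
Log2 signal of 6 members (vertical axis) against the mean log2 signal of 41 meningeal and fibroblast genes (horizontal axis) in the 9 SON arrays; circles are SHR and squares WKY. Igf2 and Igfbp2 each lay along 1 line over both strains (r = 0.985 and 0.969 after strain means were subtracted). For Igf1 (1370333_a_at), SHR arrays 2 and 4 lay above the WKY arrays at meningeal means within the WKY range. SHR arrays 1 and 3 lay beyond that range.

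Some pairs of members also moved together. Over the 19 arrays, with group means subtracted, 4 of 36 pairs passed a two-sided permutation test for r, and none passed for rho. Pairs of other probe sets were not tested, so no share over all stands beside this count. Igf2 and Igfbp2 had r = 0.627 and rho = 0.711 (permutation adjusted p = 0.00864 and 0.154), and r was 0.870 without PVN SHR array 4. Igf2 and Igfbp5 had r = 0.892 and rho = 0.572 (permutation adjusted p = 0.0106 and 0.402) and r = 0.761 without the 2 farthest arrays. Igf1 and Igfbp2 had r = 0.881 and rho = 0.378 (permutation adjusted p = 0.0134 and 0.458), and without PVN SHR array 4, low for both, r was 0.578. Igf1 and Igf2 had r = 0.404 and rho = 0.157 (permutation adjusted p = 0.0460 and 0.727), and r was 0.563 without that array.

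The genes most like each member were found by the same r over 19 arrays, given as a description; the points share libraries. For Igf2 they were Actn4 (r = 0.910), Vim (0.903) and Fn1 (0.903), which encode an actin crosslinker, vimentin and fibronectin. For Igfbp5 they were Timp3 (0.947), a metalloproteinase inhibitor, Ube2r2 (0.928) and Ldlrad3 (0.920). For Igfbp2 they were Ogn (0.924), a small proteoglycan that is also on the meningeal list, Pex2 (0.900) and Zdhhc5 (0.898), and without PVN SHR array 4 their r was 0.787, 0.699 and 0.743. For Igf1 they were Pigy (0.941), Tox4 (0.914) and Tef (0.903), and without that array 0.686, 0.553 and 0.427.

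The other members had less close companions. Those of Igf2r were Gabrg1 (0.852), Cd47 (0.849) and Nav1 (0.809), and those of Igf1r were Triap1 (0.788), Flnc (0.763) and Dlg3 (0.758). Those of Igfbp6 were Smyd5 (0.861), Pawr (0.840) and Me2 (0.825), those of Igfbp4 were C1qtnf1 (0.837), Ttc28 (0.820) and Zbtb39 (0.808), and those of Igfbp3 were Csnk1d (0.777), Ift27 (0.755) and Jun (0.715).

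The wider pathway was read from a list of 25 further genes: other binding proteins, proteases that free IGFs, insulin receptor genes and adaptor proteins. In the SON, 10 of the 25 were tested between strains, and 1 was called higher in SHR and 2 lower, against 1.29% higher and 2.33% lower over all probe sets. Pappa2, a protease that cleaves Igfbp5 and Igfbp3, averaged 6.38 in SON SHR and 4.80 in SON WKY arrays, a difference of 1.57 (SE 0.23, limma adjusted p = 0.00256). The insulin receptor Insr averaged 4.42 in SON SHR and 5.32 in SON WKY arrays (-0.89, SE 0.18, adjusted p = 0.0209). Pappa2 passed the filter, 5.31 in the SON, only through the SHR mean and Insr only through the WKY mean, each the higher group, so their calls are no support for a share of the list. The adaptor Irs2, which links the insulin and IGF receptors to PI3-kinase, averaged 6.86 in SON SHR and 7.42 in SON WKY arrays (-0.57, SE 0.12, adjusted p = 0.0258).

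In the PVN none of 10 pathway genes was called between strains, and none of 12 was called for the difference of strain differences, where Pappa2 had 1.11 (adjusted p = 0.490). Between the nuclei 4 of 12 were higher in the SON and 3 lower in SHR, and 3 were higher and 1 lower in WKY. Over all probe sets 13.7% were higher and 15.7% lower in SHR, and 13.2% higher and 13.7% lower in WKY, and the total of 4 of 12 in WKY is near the 26.9% called over all. Pappa2 was higher in the SON in both strains (2.23 in SHR, adjusted p = 1.33e-06, and 1.12 in WKY, adjusted p = 0.00159), as was the adaptor Shc1 (0.64 and 0.69). Over the 4 groups Pappa2 reached the filter of 5.32 only through the SON SHR mean, and both WKY means lay under it. Its calls between nuclei are therefore no support for a share of the list. Igfbpl1, an IGFBP-like protein, was lower in the SON, with log2 differences of -2.77 in SHR and -2.64 in WKY. In SHR, Igfbp7 (0.47) and Grb14 (0.39) were also higher in the SON, and Irs2 (-0.80) and the imprinted RNA H19 (-0.58) lower. In WKY, the insulin receptor-related receptor Insrr (1.35) was also higher in the SON.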

How the data were processed

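RNA of microdissected nuclei had been amplified in a single linear round, labelled and hybridised to Affymetrix whole-genome rat arrays. The deposited values are linear signal intensities that the authors made with MAS 5.0, scaled to a trimmed mean of about 100.02 to 100.03 per array; genome build and read depth do not apply, and precision is limited by the number of arrays. The SON SHR group had 1 array fewer than the others here.

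Signals were scaled to a common array median, raised to the 10th percentile (3.75) and log2 transformed. Probe sets were kept where 1 group or more had a mean no lower than the median over probe sets (5.32 log2 in the PVN, 5.31 in the SON). They were tested with limma 3.58.1 in R 4.3.3, two-sided, with Benjamini-Hochberg adjustment over all of them; Python 3.11.15 did the exact and permutation tests (100000 orders). Arrays of 1 nucleus entered the strain fits, all 19 the others. The script was tested on simulated data. Symbols came from the platform annotation, updated through Entrez: 20826 probe sets had 1 symbol, 436 several and 9780 none, and 57 controls were left out. Named genes were all member probe sets, the 3 genes most correlated with each, every pathway gene called, and of the meningeal list the 3 brightest and those called between strains.

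Members and lists were chosen with earlier results of these data known. Their counts beside the share over all probe sets are therefore descriptions only. Deviations of same-numbered arrays correlated at -0.226 to 0.174, and numbers were not treated as pairs. Across nuclei in SHR these correlations were all positive, so a pairing there was not excluded. Alternatives were other normalizations and filters, an offset of 16, array weights, the methods' t-test, a replicate block, a meningeal covariate, 1 fit of 4 groups and leaving out each array.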

Additional observations from a re-analysis of the deposited data

Results flagged for a closer look

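In 6 of 60 groups of arrays tested (each of the 14 member probe sets past the filter, and the meningeal mean, in each of the 4 groups), 1 array stood apart by the size of its gap to the next; chance gives about 5% of groups. PVN SHR array 4 accounted for 3 of them. Igf1 by 1370333_a_at read 2.82 on it, against 5.56 to 6.07 on the other PVN SHR arrays, while Igf1 by 1388469_at read 5.99, against 4.99 to 5.19. Igfbp2 read 3.24 on it, against 5.67 to 6.31. SON WKY array 3 accounted for a further 2: Igf2 read 9.87, against 10.34 to 10.49, and Igfbp5 by 1370960_at read 7.39, against 7.72 to 7.84. Its meningeal mean, 6.76, was the lowest of the SON arrays. Igfbp4 read 4.87 on PVN WKY array 5, against 5.23 to 5.30 on the other PVN WKY arrays. Why these arrays stood apart was not tested.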

How the results depend on the processing

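Under the alternatives that kept all arrays, member differences that were called kept their call in 83 comparisons, lost it in 16 and changed sign in 4; those not called stayed so in 432, were called in 13 and changed sign in 17. The causes of these changes were not tested beyond what each alternative's construction shows. The correlations called with the meningeal mean stayed called in all 12; leaving out 1 array, they stayed so in 16 and lost the call in 20, where fewer arrays allow fewer orders.

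Calls between strains in the PVN (380 main) numbered 608 on signals as deposited, 241 without a filter, 197 with the stricter filter, 900 with array weights, 119 by the methods' t-test and 273 to 736 leaving out 1 array. The 1 member call there became 0 on signals as deposited, without a filter, with the stricter filter (which left its probe set out), with the meningeal covariate, in 1 fit of the 4 groups and by the methods' t-test, and was 0 to 1 leaving out 1 array. In the SON (586 main) calls numbered 291 without a filter, 342 with the replicate block, 1573 with array weights, 176 by the methods' t-test and 322 to 722 leaving out 1 array. The 2 member calls became 1 without a filter and 0 by the methods' t-test, and 1 to 2 leaving out 1 array. For the difference of strain differences (14 main) there were 22 after quantile normalization, 48 with array weights, 6 with the covariate and 6 to 20 leaving out 1 array, with 1 member call (Igf1 by 1388469_at) under array weights and 0 to 1 leaving out 1 array.

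Between nuclei the stricter filter gave 3315 calls in SHR (5033 main) and 3035 in WKY (4598 main), with 3 member calls in SHR. The covariate gave 122 calls in SHR and 225 in WKY, with 0 and 1 member calls.

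The covariate also changed these signs. In SHR, SON minus PVN was -1.45 for Igfbp5 (1370960_at), -1.78 for Igfbp5 (1387348_at), -0.057 for Igfbp4 and -1.06 for Igfbp6. In WKY it was -1.18 for Igfbp5 (1387348_at), -0.17 for Igfbp4, -0.81 for Igfbp6 and -0.87 for Igf1 (1388469_at). SHR minus WKY in the SON was -0.14 for Igf2, -0.24 for Igfbp2 and -0.031 for Igf1r (1368123_at), and in the PVN -0.028 for Igfbp3 (1367652_at) and 0.0017 for Igf1r (1368123_at). The difference of strain differences was -0.26 for Igf2, -0.24 for Igfbp6 and -0.011 for Igf2r (1386872_at).

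Other settings turned values near 0. Array weights gave -0.00081 for Igfbp3 (1367652_at) and 0.019 for Igf1r (1368123_at) between strains in the PVN, and 0.020 for Igfbp3 (1386881_at) between nuclei in SHR, where quantile normalization gave 0.0019. Signals as deposited gave 0.0071 for Igf1r (1368123_at) in the PVN. The correlation of Igf2r with the meningeal mean in the PVN was 0.536 on signals as deposited and 0.041 after quantile normalization, which also gave -0.047 for Igfbp6.

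Leaving out 1 array, these values took either sign. Between strains in the PVN, Igf1 (1370333_a_at) ran from -0.80 to 0.013, Igfbp2 from -0.73 to 0.037, Igf1r (1368123_at) from -0.10 to 0.042, Igfbp3 (1367652_at) from -0.092 to 0.12 and Igfbp5 (1370960_at) from -0.0065 to 0.086. Between nuclei in SHR, Igfbp3 (1386881_at) ran from -0.13 to 0.092, Igfbp5 (1370960_at) from -0.070 to 0.19 and Igfbp5 (1387348_at) from -0.13 to 0.41. In WKY, Igf1 (1370333_a_at) ran from -0.33 to 0.028 and Igfbp3 (1367652_at) from -0.20 to 0.015. The difference of strain differences ran from -0.054 to 0.38 for Igf2, from -0.47 to 0.068 for Igfbp5 (1387348_at) and from -0.10 to 0.41 for Igfbp6. Correlations with the meningeal mean ran from -0.167 to 0.206 for Igf1r in the PVN, from -0.442 to 0.127 for Igf1r in the SON and from -0.116 to 0.608 for Igfbp6 in the PVN.

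Replicate numbers were not taken as pairs. Same-numbered arrays correlated at -0.226 to 0.080 in the PVN and -0.014 to 0.104 in the SON. Across nuclei they correlated at 0.035 to 0.174 in SHR, all positive, and at -0.0091 to -0.0011 in WKY. Not every array correlated best with its own number, but SON SHR arrays 1 and 2 did so with the PVN SHR arrays. With the replicate block 333 probe sets were called between strains in the PVN and 342 in the SON, with 1 and 2 member calls, 10 for the difference of strain differences, and 4914 and 4475 between nuclei in SHR and WKY, with 7 and 4 member calls. The block added the call of Igf1r (1392492_at) between nuclei in SHR (-0.28, adjusted p = 0.0313) and changed no other member call.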
